A study of Danio rerio with 32 samples.

Results

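The genes described here were already expressed in zebrafish gastrulae of the control group. After a short exposure to valproic acid they lay at least 2-fold higher, with no overlap with the control or folic acid libraries. They were chosen by their measured values. A gene was taken when its mean over the control libraries was at least 5 on the deposited log2 scale, when its lowest valproic acid library lay above the highest control and the highest folic acid library, and when the mean with valproic acid exceeded the mean in controls by at least 1. Of 15710 genes measured, 12813 had a control mean of 5 or more, 240 of these also met the difference, 357 met the requirement of no overlap, and 118 met both. Of the 118, 7 are not analysed here, which leaves 111 genes. Because the valproic acid, folic acid and control values chose the genes, their differences from control are given below as a description. The retinoic acid libraries had no part in the choice, although the control libraries they are compared with did.

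The study measured polyadenylated RNA of whole zebrafish embryos in 32 libraries, 8 each from embryos exposed to valproic acid, to all-trans retinoic acid, to folic acid, or to the carrier alone. All groups, controls included, were kept in Dutch standard water with 0.01% dimethyl sulfoxide (DMSO), a solvent, and the exposure ran for 4 h, between 3 and 7 h after fertilisation. No concentrations are stated in the labels. Whether the 8 libraries of a group stem from different clutches or pools is not stated either, so the p-values below reflect library-to-library spread that may be only technical. In whole embryos, more cells of a type and more RNA per cell cannot be told apart.

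Valproic acid is an anticonvulsant that causes neural tube and other defects when given in pregnancy. It inhibits histone deacetylases, the enzymes that remove acetyl groups from histones and other proteins. Acetylated histones are found at active promoters, and inhibiting the deacetylases changes the transcription of many genes, both up and down. All-trans retinoic acid acts through nuclear receptors and patterns the hindbrain and trunk. Folic acid is a vitamin of the one-carbon cycle. The exposure window covers the onset of transcription from the embryo's own genome, epiboly and the start of gastrulation.

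The deposited values had nearly the same distribution in every library, as after quantile normalization, a step that the labels do not state, and no library total can be read from them. Differences between groups are therefore relative to the other genes of a library. Relative depth was judged from the number of distinct values at or below 5, close to the number of reads that a log2 value of 5 stands for. It was 11 to 33 with valproic acid, 13 to 21 with retinoic acid, 7 to 28 with folic acid and 12 to 29 in controls. Folic acid replicates 7 and 8 had the fewest, 7 and 8, and without them in the rule 121 genes would have been taken, among them all 111. Genes near the lower limit of 5 therefore rest on few reads per library. No pair of libraries was identical, the lowest median absolute difference between any 2 libraries being 0.197. Values are not divided by gene length, so levels are compared between groups for 1 gene and not between genes.

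Averaged over the 111 genes, the 8 valproic acid libraries lay between 8.16 and 8.50, the 8 retinoic acid libraries between 6.88 and 7.07, the 8 folic acid libraries between 6.84 and 6.96, and the 8 control libraries between 6.87 and 7.03. The group means were 8.34 ± 0.11 with valproic acid, 6.97 ± 0.072 with retinoic acid, 6.93 ± 0.041 with folic acid and 6.93 ± 0.053 in controls (SD over libraries, n = 8 each). Valproic acid libraries were thus higher than any other library, as the rule required for control and folic acid, and the other 3 groups overlapped.

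**Figure D1:**
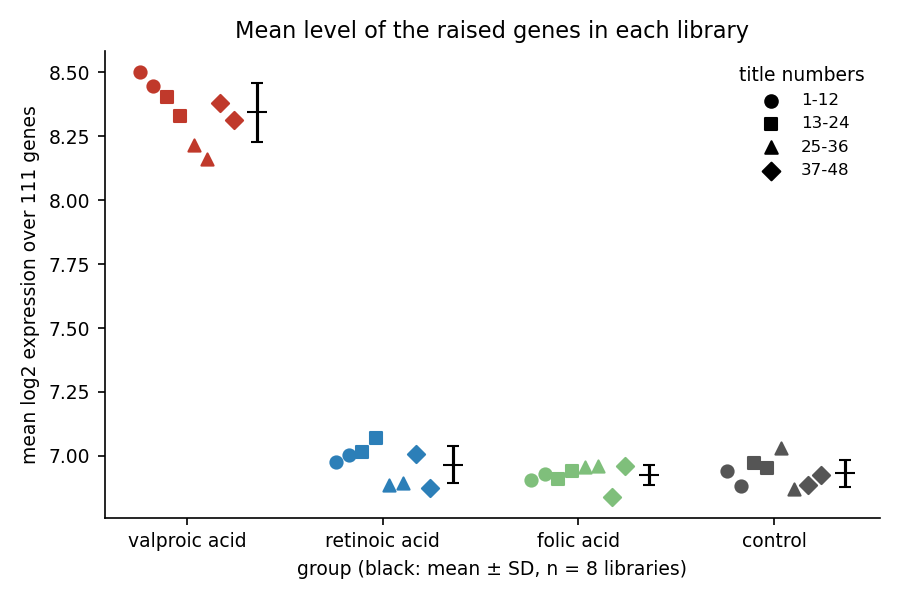
Mean log2 expression over the 111 genes in each of the 32 libraries, by group. Marker shapes give the set of title numbers and black bars the mean ± SD over 8 libraries. The valproic acid libraries lie between 8.16 and 8.50, and the retinoic acid, folic acid and control libraries all lie at 7.07 or below.

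The difference between valproic acid and control had a median of 1.28 on the log2 scale over the 111 genes, or 2.44-fold, and ran from 1.0 to 2.55, or 2.0-fold to 5.85-fold. It was at least 2 for 7 genes, at least 1.5 for 37 and under 5/4 for 47. The gap between the lowest valproic acid library and the highest control or folic acid library had a median of 0.34 and reached 1.38 for LRCH1. All 111 genes passed limma with Benjamini-Hochberg adjustment over all genes in the direction of higher with valproic acid, where 15.9% of all genes did, and 0 passed in the direction of lower, where 15.4% did. Both counts follow from the rule and are read no further. The spread between valproic acid libraries had a median SD of 0.28 over the 111 genes, against 0.37 with retinoic acid, 0.37 with folic acid and 0.36 in controls. Over all genes the median SDs were 0.36 with valproic acid, 0.36 with retinoic acid, 0.34 with folic acid and 0.31 in controls. The rule favours genes whose valproic acid libraries lie close together, since the lowest must clear all control and folic acid libraries. The smaller SD with valproic acid is therefore a description of the chosen genes only.

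Most of the genes lay in the lower part of the expressed range. Their control means had a median of 6.83, against 8.55 for all genes with a control mean of at least 5. Of the 111, 30 had a control mean of 5 to 6, 34 of 6 to 7, 27 of 7 to 8, 13 of 8 to 9 and 7 of 9 or more. Over all genes the same ranges held 1640, 1704, 1973, 1989 and 5507. The median difference of the chosen genes was 1.57 in the lowest of these ranges and 1.06 in the highest. The rule asks for a larger difference where libraries spread more, so this order is a description of the chosen genes only. The lowest single control value of any of these genes was 3.32, and 6 genes had a control library under 4.

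The genes nearest to each limit had these values of the measure that the limit is set on. By control mean, btbd6a, FYN and LRCH1 lay just inside at 5.11 each, and BOK, inpp5l and ANKH just outside at 4.98, 4.95 and 4.93. By the gap between libraries, PURA and EBP lay just inside at 0.0073 and 0.0075, and RGS5, TMTC4 and hdr just outside at -0.0014, -0.0015 and -0.0072. By the difference of means, ITFG2, atn1 and CD63 lay just inside at 1.0, 1.01 and 1.01, and CISD2, DENND11 and SLC7A1 just outside at 0.996, 0.994 and 0.990. Symbols are spelled as in the identifier table, which gives many zebrafish genes their human symbol, and 110 of the 111 genes had one.

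By known role, 86 of the 111 genes were placed in 7 groups after their values had been seen, and 25 were left ungrouped. The groups hold 18 genes of vesicle traffic, secretion and the lysosome, 13 of chromatin, transcription and the DNA damage response, and 13 metabolic, folding and modifying enzymes. Another 12 are lipid and membrane genes, which include synthetic and degrading enzymes and transporters. The rest are 11 kinases, phosphatases and small GTPases, 10 genes of the cytoskeleton, adhesion and matrix, and 9 channels, transporters and surface receptors. Group medians of the difference from control lay between 1.2 for the chromatin group and 1.54 for channels and receptors.

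LRCH1 had the largest difference of all 111 genes. It encodes a protein with leucine-rich repeats and a calponin homology domain. Its values (lowest, median and highest of 8 libraries) were 6.99, 7.77 and 8.20 with valproic acid, 3.64, 4.72 and 6.08 with retinoic acid, 4.04, 4.88 and 5.61 with folic acid, and 3.98, 5.30 and 5.54 in controls. The difference between valproic acid and control was 2.55 (SE 0.29), and the valproic acid libraries lay clear of all 24 others. FJX1, the homolog of Drosophila four-jointed, a Golgi kinase that in the fly phosphorylates the large cadherins Fat and Dachsous, spanned 7.41, 8.0 and 8.30 with valproic acid, 4.17, 5.21 and 6.09 with retinoic acid, 4.20, 5.85 and 6.81 with folic acid, and 5.53, 5.86 and 6.45 in controls, a difference of 2.05 (SE 0.27). The adhesion gene JAM3 (ENSDARG00000114589), a junctional adhesion molecule, differed by 1.95 (SE 0.25), and SSH1, the slingshot phosphatase that activates the actin-severing protein cofilin, by 1.92 (SE 0.21). The microtubule minus-end binding gene CAMSAP1 differed by 1.55, ARPC5, a subunit of the actin-nucleating Arp2/3 complex, by 1.30, and MAP1A, a microtubule-associated protein of neurons, by 1.17.

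A further 3 genes of this group act in collagen: P3H3, a prolyl hydroxylase, with a difference of 1.28, COL1A2, a chain of type I collagen, with 1.24, and SERPINH1, the collagen chaperone of the endoplasmic reticulum, with 1.05. SERPINH1 had the highest deposited control value of the 111 genes, which is not corrected for gene length. Its values were 12.9, 13.2 and 13.5 with valproic acid, 11.5, 12.2 and 12.5 with retinoic acid, 12.2, 12.4 and 12.7 with folic acid, and 11.8, 12.1 and 12.5 in controls. The valproic acid libraries lay above all others, though the folic acid libraries came close.

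Among signalling enzymes, FYN came first. It encodes a tyrosine kinase of the Src family, which in zebrafish takes part in the cell movements of gastrulation. FYN values were 7.04, 7.33 and 8.18 with valproic acid, 4.38, 5.20 and 6.14 with retinoic acid, 3.63, 5.44 and 6.03 with folic acid, and 3.67, 5.33 and 5.86 in controls, a difference of 2.42 (SE 0.31). MRAS, a small GTPase related to Ras, was at 7.20, 7.57 and 8.39 with valproic acid, 5.13, 5.89 and 6.39 with retinoic acid, 3.92, 5.88 and 6.57 with folic acid, and 4.98, 5.54 and 6.72 in controls, a difference of 2.03 (SE 0.28). In neither gene did the valproic acid libraries overlap with any other. Smaller differences were found for akt3b, a kinase downstream of phosphoinositide 3-kinase, at 1.75, for PPM1L, a serine/threonine phosphatase, at 1.67, and for prkacab, a catalytic subunit of the cyclic AMP-dependent kinase, at 1.43. The group also holds the GTPase RAC3 (1.26), the kinases wnk3 and MAPK4 (1.25 and 1.18), mob1bb, a coactivator of Hippo pathway kinases (1.16), and PPME1, which demethylates protein phosphatase 2A (1.03).

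**Figure D2:**
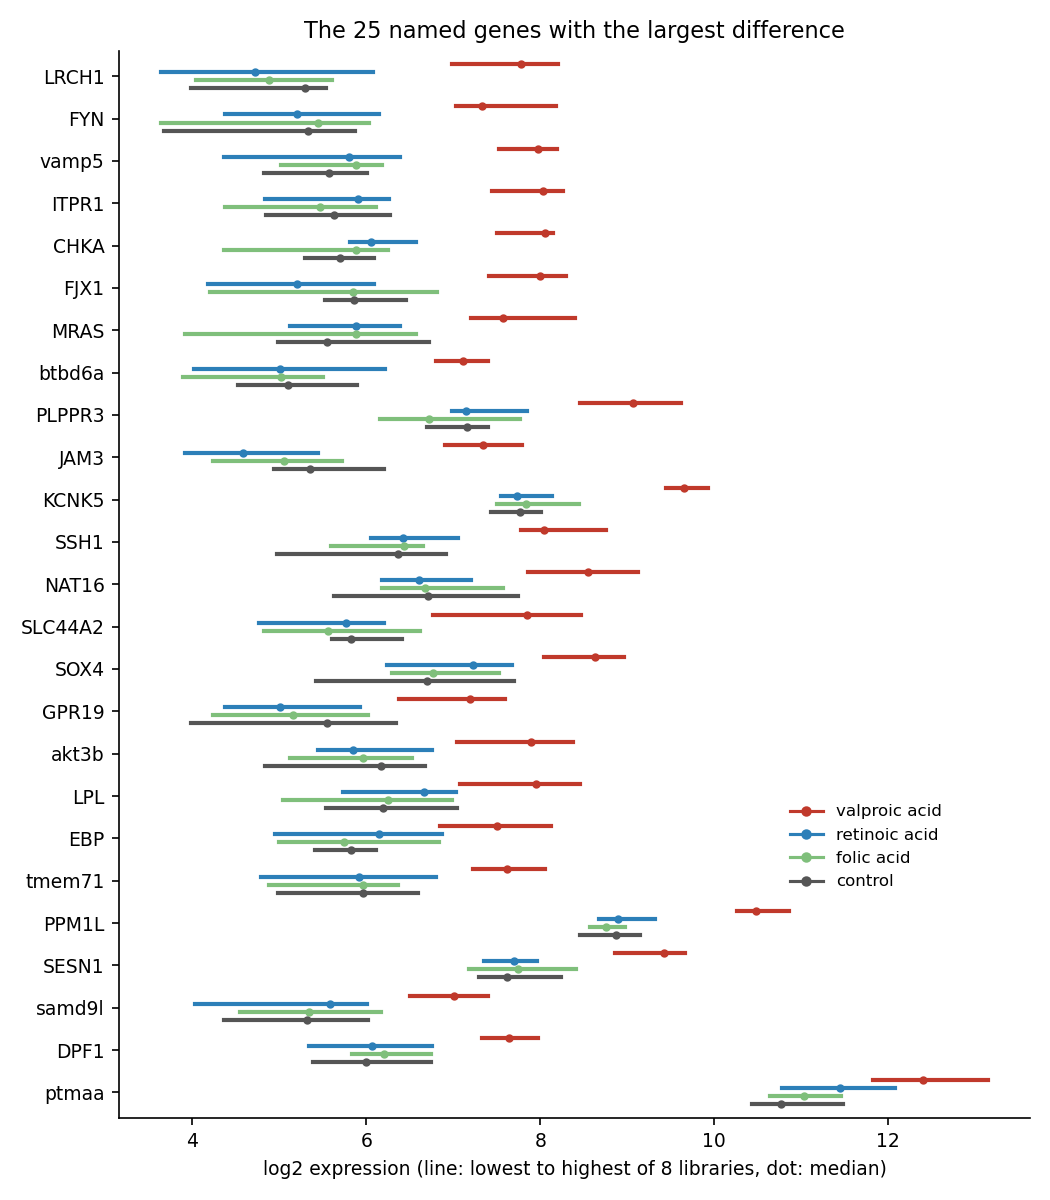
Log2 expression of the 25 named genes with the largest difference between valproic acid and control, as lines from the lowest to the highest of 8 libraries with a dot at the median, for each group. The valproic acid lines lie to the right of the control and folic acid lines in each row, as the rule required, and for EBP and ptmaa they reach into the retinoic acid range.

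The channel and receptor group was led by ITPR1, the inositol trisphosphate receptor that releases calcium from the endoplasmic reticulum. Its values were 7.44, 8.03 and 8.26 with valproic acid, 4.83, 5.90 and 6.26 with retinoic acid, 4.38, 5.47 and 6.11 with folic acid, and 4.84, 5.62 and 6.27 in controls, a difference of 2.32 (SE 0.25). KCNK5, a potassium leak channel, was measured more tightly, at 9.45, 9.65 and 9.93 with valproic acid, 7.55, 7.73 and 8.13 with retinoic acid, 7.50, 7.84 and 8.44 with folic acid, and 7.43, 7.76 and 8.0 in controls. Its difference was 1.93 (SE 0.12), and at least 1 log2 unit separated its lowest valproic acid library from the highest of the rest. The orphan receptors GPR19 and gpr146 differed by 1.77 and 1.56, the water channel AQP11 by 1.54, and cmtm7, a membrane protein of the MARVEL family, by 1.54. The flagellin receptor tlr5b (1.27), the export pump ABCC5 (1.19) and the transporter mfsd10 (1.15) followed.

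Lipid and membrane genes included 2 steps of phosphatidylcholine supply. CHKA, choline kinase, which phosphorylates choline in the first step of the pathway, was at 7.50, 8.05 and 8.15 with valproic acid, 5.81, 6.06 and 6.57 with retinoic acid, 4.36, 5.88 and 6.24 with folic acid, and 5.30, 5.69 and 6.08 in controls, a difference of 2.29 (SE 0.19). SLC44A2, a choline transporter-like protein, was at 6.77, 7.85 and 8.46 with valproic acid, 4.77, 5.76 and 6.21 with retinoic acid, 4.82, 5.55 and 6.61 with folic acid, and 5.60, 5.82 and 6.41 in controls, a difference of 1.84 (SE 0.25). The valproic acid libraries of SLC44A2 were more widely spread than those of CHKA, and its lowest lay 0.16 above the highest folic acid library. Further lipid genes were PLPPR3, a phospholipid phosphatase-related protein of growing axons, at 1.96, LPL, lipoprotein lipase, at 1.74, and EBP, a sterol isomerase of cholesterol synthesis, at 1.69. TAMM41, which makes the cardiolipin precursor CDP-diacylglycerol in mitochondria, differed by 1.38, PNPLA6, an esterase of phosphatidylcholine, by 1.31, the phosphoinositide phosphatase INPP5F by 1.29, the lysophospholipid transporter MFSD2A by 1.27 and phospholipase D (PLD2) by 1.26. The fatty acid elongase elovl8b and the lysosomal galactosylceramidase GALC were lowest in this group at 1.15 and 1.12.

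The group of vesicle traffic, secretion and the lysosome was the largest, and vamp5, a SNARE protein of membrane fusion, led it. Its values were 7.52, 7.98 and 8.19 with valproic acid, 4.36, 5.80 and 6.39 with retinoic acid, 5.02, 5.88 and 6.18 with folic acid, and 4.83, 5.57 and 6.0 in controls, a difference of 2.38 (SE 0.23). The lysosomal membrane gene TMEM192 differed by 1.61, the tetraspanin cd9a by 1.58, CYTH1, an exchange factor for ARF GTPases, by 1.56, and APP, the amyloid precursor protein, by 1.48. SCG3, a secretogranin of dense-core granules, differed by 1.37, the aspartic protease napsa by 1.36, and SH3BP5, an exchange factor for Rab11, by 1.31. A further 9 genes of the group, VPS33B, TRAPPC6A, ICA1L, FLOT1, GOLGA7B, REEP2, ASAP1, EHD1 and CD63, differed by 1.01 to 1.23.

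Among chromatin and transcription genes, SOX4 (ENSDARG00000004588) encodes an HMG-box transcription factor of neural and other progenitors. SOX4 was at 8.04, 8.63 and 8.96 with valproic acid, 6.23, 7.22 and 7.67 with retinoic acid, 6.30, 6.77 and 7.53 with folic acid, and 5.42, 6.69 and 7.70 in controls, a difference of 1.84 (SE 0.25). Its control libraries spread over more than 2 log2 units, and all lay below the lowest valproic acid library, as the rule required. DPF1, a subunit of the BAF chromatin remodelling complex of neurons, was at 7.33, 7.64 and 7.97 with valproic acid, 5.34, 6.06 and 6.75 with retinoic acid, 5.83, 6.20 and 6.74 with folic acid, and 5.38, 6.0 and 6.74 in controls, a difference of 1.62 (SE 0.20). SESN1, a sestrin of the cellular stress response, differed by 1.65 (SE 0.16). ptmaa, a prothymosin alpha, an acidic nuclear protein that binds histones, was at 11.8, 12.4 and 13.2 with valproic acid, 10.8, 11.4 and 12.1 with retinoic acid, 10.6, 11 and 11.5 with folic acid, and 10.4, 10.8 and 11.5 in controls, a difference of 1.61 (SE 0.17). Its highest retinoic acid library exceeded its lowest valproic acid library by 0.26. MYT1, a zinc finger factor of neuronal differentiation, differed by 1.29, the nucleic acid binding proteins PURA and PURB by 1.21 and 1.12, the nucleosome-binding protein hmgn3 by 1.2, and atrip, the partner of the checkpoint kinase ATR, by 1.16. GMEB2, the corepressors bcorl1 and atn1, and ppp1r13l lay between 1.01 and 1.15.

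The metabolic and modifying enzymes had NAT16, an N-acetyltransferase, first at 1.90 (SE 0.23), with values of 7.85, 8.55 and 9.13 with valproic acid, 6.18, 6.60 and 7.20 with retinoic acid, 6.18, 6.67 and 7.57 with folic acid, and 5.62, 6.70 and 7.75 in controls. The poly(A) polymerase tent5ba and ASL, argininosuccinate lyase of the urea cycle, each differed by 1.59. ADA2, a secreted adenosine deaminase, differed by 1.49, DCUN1D2, a cofactor of cullin neddylation, by 1.38, and the deubiquitinase USP20 by 1.28. A further 6 of this group, MPND, tpst1l, got2b, pgam1a, PDIA4 and MTRR, lay between 1.02 and 1.5. MTRR reactivates methionine synthase and so links the folate and methionine cycles, and its values were 6.74, 7.35 and 7.64 with valproic acid, 5.96, 6.29 and 7.43 with retinoic acid, 6.33, 6.46 and 6.65 with folic acid, and 5.81, 6.22 and 6.72 in controls. Of the 14 genes with overlap between valproic acid and retinoic acid libraries, MTRR overlapped the furthest, by 0.69, and this was its highest retinoic acid library alone, the other 7 lying below every valproic acid library.

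The ungrouped genes were led by btbd6a, a BTB-domain protein that in zebrafish promotes neurogenesis, with values of 6.80, 7.11 and 7.40 with valproic acid, 4.01, 5.01 and 6.22 with retinoic acid, 3.89, 5.02 and 5.51 with folic acid, and 4.53, 5.10 and 5.90 in controls, a difference of 1.97 (SE 0.27). tmem71 and samd9l differed by 1.69 and 1.65. The remaining 22 ungrouped genes ran from 1.0 for ITFG2 to 1.83 for si:dkey-27i16.2, and 1 of them, ENSDARG00000090072, had no symbol.

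The retinoic acid libraries show how these genes stood under a second teratogen. None of the 111 genes passed limma with Benjamini-Hochberg adjustment over all genes, neither as higher with retinoic acid, where 0.592% of all genes passed, nor as lower, where 0.14% did. At an unadjusted p under 0.05, 13 of the 111 genes, or 11.7%, differed, 8 higher and 5 lower with retinoic acid, against 5.9% of all genes. The control libraries in this comparison had also chosen the 111 genes, so the shares and differences here are a description. The difference between retinoic acid and control ran from -0.95 to 0.61 over the 111 genes with a median of 0.042, it was within 0.25 of 0 for 82 genes, and 65 lay above 0. Over all genes its median was -0.0068. The 95% interval of the difference had a median half-width of 0.38, and its upper limit was under 1 for all 111 genes, the highest being 0.985.

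The 5 genes with the highest difference between retinoic acid and control were CYTH1, ptmaa, cmtm7, VPS33B and METTL26. CYTH1 was at 7.37, 7.77 and 8.13 with retinoic acid and 6.71, 7.13 and 7.82 in controls, a difference of 0.61 (SE 0.18, adjusted p = 0.152 by limma). ptmaa differed by 0.55 (SE 0.17, adjusted p = 0.212 by limma), with the retinoic acid and control ranges given above overlapping. In a fit with the title-number set as a block both passed, CYTH1 with an adjusted p of 0.00916 and ptmaa with an adjusted p of 0.0213 by limma, and they were then 2 of 147 genes called higher in all. At the other end, si:dkey-27i16.2 lay at 4.85, 5.82 and 7.13 with retinoic acid and 6.01, 6.80 and 7.46 in controls, a difference of -0.95 (SE 0.26, adjusted p = 0.0788 by limma). This gene, singled out after its values were seen, passed when control replicate 4 or retinoic acid replicate 3 was left out. The other 4 genes with a negative difference at an unadjusted p under 0.05 were FJX1, JAM3, COL1A2 and atn1, with -0.75, -0.74, -0.61 and -0.35, and adjusted p-values of 0.416, 0.326, 0.611 and 0.632 by limma. Of these, atn1 belongs to the chromatin group and 3 to the cytoskeleton, adhesion and matrix group. Other genes of that group lay on either side of 0, such as LRCH1 at -0.38, P3H3 at -0.17, SERPINH1 at 0.03 and SSH1 at 0.27.

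**Figure D3:**
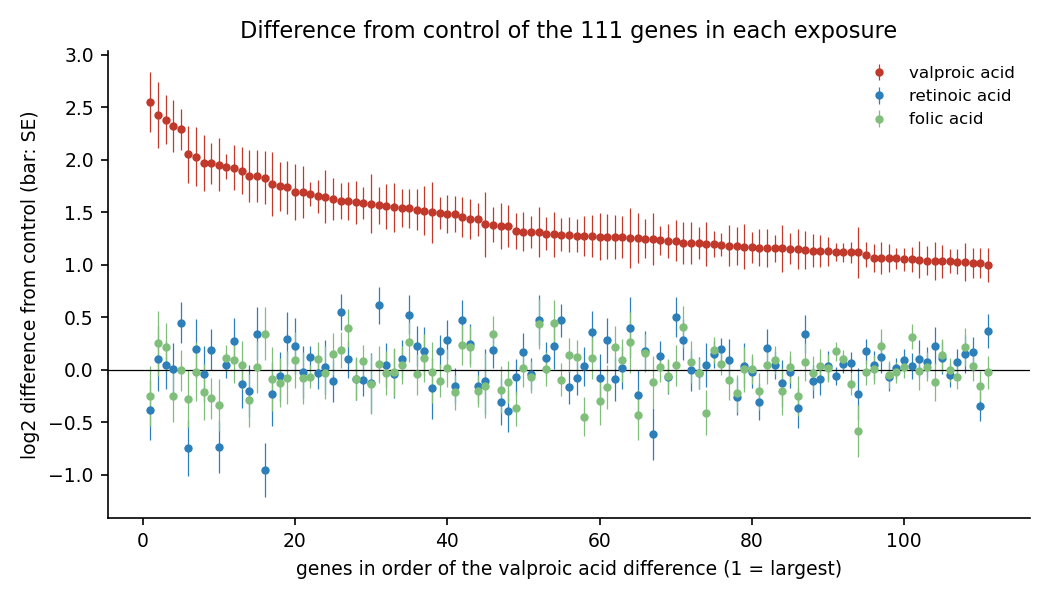
Log2 difference from control of the 111 genes with valproic acid, retinoic acid and folic acid, in order of the valproic acid difference, with bars of 1 SE. The valproic acid points run from 2.55 down to 1.0 because the rule set that limit, and the retinoic acid points lie between -0.95 and 0.61.

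Compared directly, the lowest valproic acid library lay above the highest retinoic acid library for 97 of the 111 genes, where 3.55% of all genes met this. The lowest valproic acid value had already entered the rule. The 14 genes for which the ranges met included ITFG2, pgam1a, PPME1, RNFT1, GLIPR2, ptmaa, METTL26, hmgn3, VPS33B, MTRR, EBP, tdrkh and INPP5F. With folic acid the differences from control ran from -0.58 to 0.45 with a median of 0.0015, and 56 of 111 lay above 0. The folic acid libraries had been used in the choice.

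Library titles carry numbers up to 48 that fall into 4 sets of 12, and in each set every group has 2 libraries. What the numbers stand for is not stated, so the sets were compared with each other. A positive difference in every set was fixed by the rule, since no valproic acid library may overlap a control library, and the sizes below are a description of the chosen genes. The difference was at least 1 in every set for 51 of the 111. The median difference over the 111 genes was 1.46 in numbers 1-12, 1.34 in 13-24, 1.19 in 25-36 and 1.38 in 37-48. The difference reached 1 for 94 genes in numbers 1-12, for 91 in 13-24, for 77 in 25-36 and for 92 in 37-48. Numbers 25-36 gave the smallest difference for 52 genes, or 46.8%, and numbers 1-12 the largest for 51, or 45.9%. Among the 2386 other genes called higher with valproic acid these shares were 29.4% and 36%. The means over the 111 genes were 8.47, 8.36, 8.19 and 8.35 in the valproic acid libraries of the 4 sets, against 6.91, 6.96, 6.95 and 6.91 in the control libraries. The valproic acid libraries of 25-36 were the 2 lowest of their group, and the control libraries showed no such order.

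**Figure D4:**
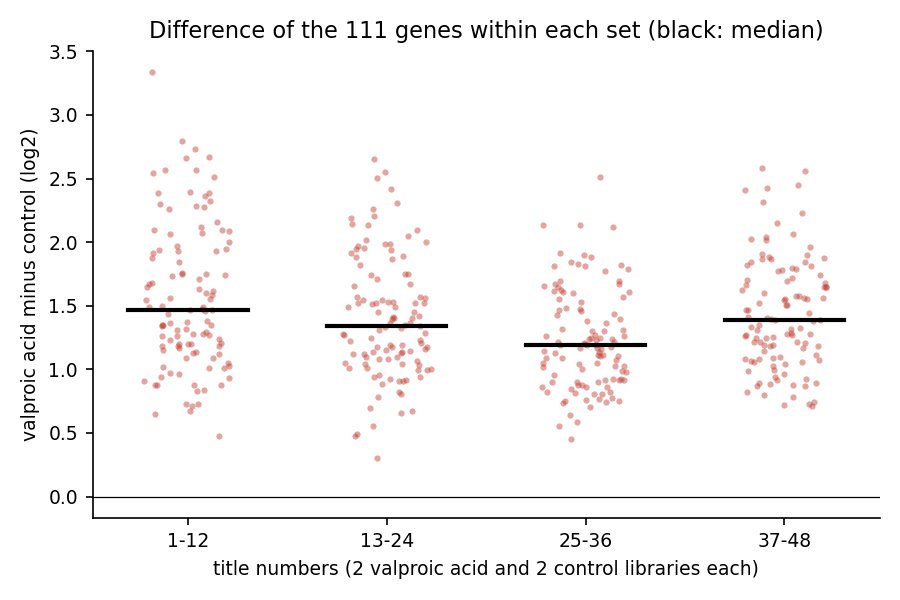
Difference between valproic acid and control within each set of 12 title numbers (2 valproic acid and 2 control libraries each), 1 point per gene for the 111 genes, with the median as a black bar. The medians are 1.46, 1.34, 1.19 and 1.38, and the lowest point is CD63 in numbers 13-24.

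By the limma F-test of the interaction between valproic acid and set with Benjamini-Hochberg adjustment, 2 of the 111 genes passed, or 1.8%, near the 1.98% of all genes. The test uses the valproic acid and control libraries that chose the genes, so the values of the 2 are given as a description. CD63, a tetraspanin of late endosomes and secreted vesicles, had set means of 9.96, 9.24, 9.22 and 9.47 with valproic acid against 8.03, 8.93, 8.35 and 8.53 in controls, and thus differences of 1.93, 0.31, 0.88 and 0.94 (adjusted p = 0.00827 by limma). prkacab had differences of 2.27, 1.09, 0.81 and 1.56 in the same order (adjusted p = 0.0225 by limma). Both were largest in numbers 1-12, where CD63 and prkacab also had their highest retinoic acid minus control difference, 0.69 for CD63 and 0.98 for prkacab. The count rested on single libraries. It was 0 without control replicate 1 or without valproic acid replicate 1, both from numbers 1-12. Without control replicate 2 it was 4, when SOX4 and ptmaa were added. Over all genes the calls moved in the same way, to 34, 35 and 517 in the same order, against 311 in the main fit. Without control replicate 5, from numbers 25-36, prkacab no longer passed and ppp1r13l did.

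Outside valproic acid, the level itself differed between the sets for 23 of the 111 genes, or 20.7%, by a limma F-test over the other 24 libraries with Benjamini-Hochberg adjustment, against 19.3% of all genes. The share was thus near that of all genes. Without retinoic acid replicate 5 the count was 14, and the count over all genes was 2542, against 3037 in the main fit. tent5ba had the lowest p (adjusted p = 6.3e-05 by limma), with set means of 8.69, 7.83, 8.41 and 8.75 over the other groups. Its valproic acid means, 10.4, 9.64, 9.75 and 10.5 in the same sets, were likewise lowest in numbers 13-24. SOX4 had means of 6.69, 7.43, 6.34 and 6.94 (adjusted p = 0.0092 by limma), SESN1 of 7.79, 7.58, 7.44 and 8.07 (adjusted p = 0.0086 by limma) and SERPINH1 of 12.5, 12.2, 11.9 and 12.2 (adjusted p = 0.0064 by limma). Over the 23 genes the highest and lowest set mean differed by 0.41 to 1.09. The lowest set was numbers 25-36 for 10 of the 23 and the highest was the same set for 8, so the sets did not order these genes in 1 way.

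Zebrafish keep many gene pairs from a genome duplication in the fish lineage, and 22 of the 111 genes share their symbol with 1 other measured gene. Whether each pair arose in that way was not checked. This comparison was chosen after the data had been seen, and reads shared between near-identical copies may have been assigned to either. None of the 22 second genes is among the 111. Their difference between valproic acid and control had a median of 0.30, against 1.45 for the 22 genes themselves, which the rule had chosen for a large one. Of the second genes, 8 passed as higher (36.4%, against 15.9% of all genes), 2 as lower (9.1%, against 15.4%) and 12 did not pass, by limma with Benjamini-Hochberg adjustment. The upper 95% limit was under 1 for 16 of them.

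The pairs took several forms. The second JAM3 gene (ENSDARG00000061794) was at 10.9 ± 0.39 with valproic acid and 10.3 ± 0.32 in controls (SD, n = 8 each), a difference of 0.68 (95% interval 0.36 to 0.99), and the second SOX4 gene (ENSDARG00000098834) at 9.67 ± 0.43 with valproic acid and 8.96 ± 0.31 in controls, a difference of 0.72 (0.36 to 1.08). The second MFSD2A gene differed by 0.75 (0.50 to 1.0), that of PURB by 0.35 (0.19 to 0.50), CYTH1 by 0.30 (0.09 to 0.50) and EHD1 by 0.29 (0.13 to 0.45). These second genes rose too, with differences under 1. For KCNK5, SLC44A2 and PURA the second gene gave differences of -0.01 (-0.50 to 0.49), -0.07 (-0.69 to 0.55) and 0.04 (-0.41 to 0.50), intervals that leave out a 2-fold rise. The second CAMSAP1 gene fell by 0.33 on the log2 scale (adjusted p = 0.041 by limma) and the second DCUN1D2 gene by 0.42 (adjusted p = 0.019 by limma). RAC3 was the exception, and the second gene (ENSDARG00000020795) had 6.58 ± 0.65 with valproic acid and 2.82 ± 0.60 in controls, a difference of 3.76 (2.86 to 4.67). Its control level was under the minimum of 5, which kept it out of the 111.

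**Figure D5:**
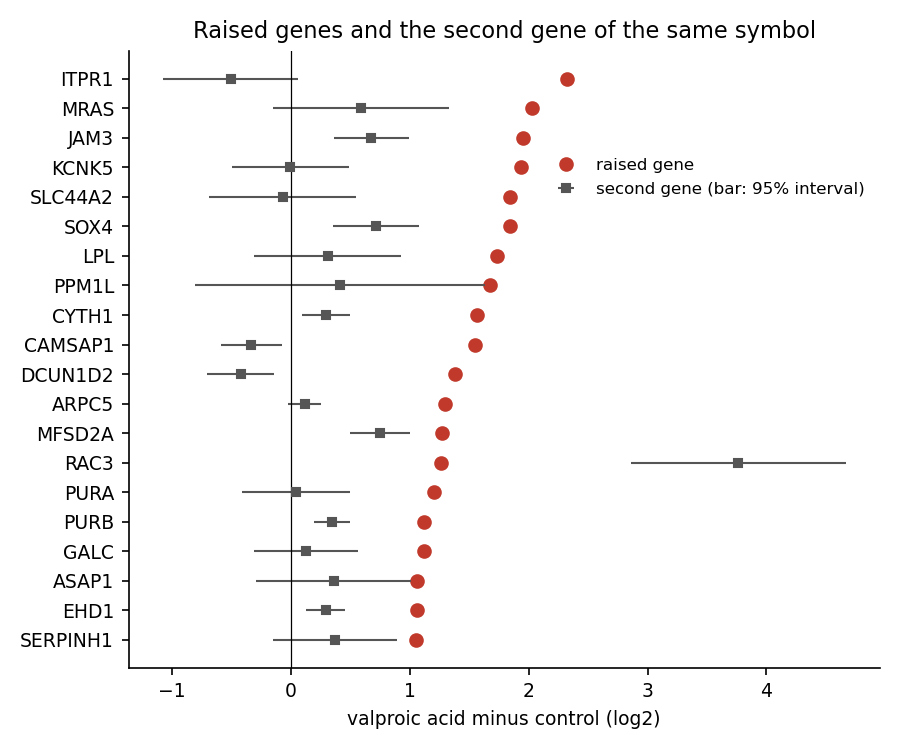
Difference between valproic acid and control (log2) for 20 of the 22 genes among the 111 that share a symbol with 1 other measured gene (red) and for that second gene (grey, with its 95% interval). The second gene lies to the left of the red point in 19 of 20 rows, and RAC3 is the exception at 3.76.

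Gene lists were chosen for known effects of valproic acid and for the roles of the leading genes. The 111 are a small share of the 15710 genes measured, and at that share a short list may hold none of them. How many of the 111 each list held is therefore read no further. None of the 10 measured histone deacetylase genes was among the 111. Of the 10, 2 were higher and 2 lower with valproic acid at an adjusted p under 0.05 by limma, where 15.9% and 15.4% of all genes were. Of 20 measured genes known from mammalian cells to rise with deacetylase inhibitors, 0 were among the 111, 3 passed as higher and 4 as lower. STMN4, a tubulin-binding stathmin of that list, was at 4.84 with valproic acid and 6.45 in controls, a difference of -1.61 (SE 0.23, adjusted p = 2.1e-06 by limma).

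Of 35 genes of synaptic vesicles and exocytosis, 10 passed as higher, vamp5 among them, and 5 as lower, with a median difference of 0.25. Of 20 subunits and partners of the vesicular proton pump, 10 passed as higher and 1 as lower, with a median of 0.32. Of 60 lysosome and autophagy genes, GALC among the 111, 15 passed as higher and 7 as lower, with a median of 0.13. Over all genes the median was -0.014, and 15.9% passed as higher and 15.4% as lower. The pump gene ATP6V0D1 was at 8.81 with valproic acid and 7.92 in controls (difference 0.90, SE 0.19, adjusted p = 0.00059 by limma), and the autophagy gene atg9b at 10.4 with valproic acid and 9.66 in controls (difference 0.74, SE 0.08, adjusted p = 4.3e-08 by limma).

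In the lists that hold the leading genes, some genes passed as higher and some as lower, where 15.9% and 15.4% of all genes did. The higher counts include the leading genes themselves, which the rule had chosen as higher. Of 38 genes of choline and phospholipid synthesis, 8 were higher, CHKA and SLC44A2 among them, and 5 lower, with a median of 0.11. CHKB, the other choline kinase, was at 8.20 with valproic acid and 7.49 in controls, a difference of 0.71 (SE 0.15, adjusted p = 0.00038 by limma), while PGS1, which makes the cardiolipin precursor phosphatidylglycerol phosphate, differed by -1.04 (SE 0.23, adjusted p = 0.00058 by limma). Of 33 calcium release and pump genes 9 were higher, ITPR1 among them, and 4 lower. ITPR3, another inositol trisphosphate receptor, was at 8.39 with valproic acid and 9.07 in controls, a difference of -0.68 (SE 0.14, adjusted p = 0.00025 by limma). Of 22 Src family and adhesion kinase genes 4 were higher, FYN among them, and 1 lower, the Src-related kinase FRK, by -0.89 (SE 0.18, adjusted p = 0.00023 by limma).

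Of 26 genes of the Fat, Dachsous and planar polarity pathway, FJX1 and 2 others were higher and 6 lower, with a median of -0.14. The shares over all genes were again 15.9% higher and 15.4% lower. PRICKLE1, a core planar polarity gene of convergence and extension movements, was at 9.67 with valproic acid and 10.3 in controls (difference -0.68, SE 0.09, adjusted p = 1e-06 by limma). Of 34 genes of growth arrest and the stress response 11 were higher, SESN1 among them, and 2 lower, with a median of 0.076. The sestrin gene sesn2 differed by 0.77 (SE 0.13, adjusted p = 2.4e-05 by limma). Of 44 heat shock and unfolded protein genes 9 were higher, PDIA4 among them, and 4 lower. HSPE1 and HSPD1, the mitochondrial chaperonin pair, differed by 0.93 (SE 0.10) and 0.49 (SE 0.07).

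The other 5 lists held none of the 111. The lists name only some genes of each role. Genes of the 111 with related roles, such as SSH1, ARPC5, JAM3, COL1A2 and MYT1, were not listed. Passing as higher and lower were 12 and 5 of 39 genes of fatty acid oxidation, 8 and 2 of 23 of phosphate and sodium-coupled transport, 8 and 7 of 49 of actin binding, 6 and 4 of 30 of neuronal differentiation, and 3 and 7 of 61 of integrins, matrix and junctions. Over all genes 15.9% passed as higher and 15.4% as lower. CPT1A, which admits long-chain fatty acids to mitochondria, was at 10.7 with valproic acid and 9.81 in controls, a difference of 0.88 (SE 0.07, adjusted p = 1.4e-11 by limma). With retinoic acid, 5 genes over the 16 lists passed as higher and 0 as lower, where 0.592% and 0.14% of all genes did.

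Markers of embryonic and extraembryonic layers, germ cells and maternal RNA were compared between valproic acid and control. None of the 51 measured was at 0 in any library, which does not establish the stage of the embryos, and none was among the 111. Of the mesoderm and organizer markers 0 of 5 passed as higher or lower with valproic acid, and tbxta, the notochord and tail factor, was at 12.9 with valproic acid and 12.8 in controls. In the other layers, embryonic and extraembryonic, markers that passed were lower. These were 3 of 4 endoderm, 3 of 5 ectoderm, 2 of 10 enveloping layer and 4 of 10 yolk syncytial layer markers, with 0 higher in each. Over all genes 15.9% passed as higher and 15.4% as lower, and the lists are too short to set their shares against these. The yolk syncytial layer list counts the symbols afp4 and TTN under 2 identifiers each. TTN, titin, belongs to muscle and is no marker of that layer, and TTN did not pass. The summed level of the yolk syncytial layer list was 14.2 to 14.9 with valproic acid and 14.8 to 15.5 in controls on the log2 scale, that of endoderm 12 to 12.4 and 12.5 to 12.7 in the same order, and that of ectoderm 13.6 to 14 with valproic acid and 13.8 to 14.2 in controls. Of germ cell markers 1 of 8 was higher and 0 lower, and of maternal transcripts 2 of 9 were higher and 0 lower. The summed germ cell list was 10.8 to 12.4 with valproic acid and 11.2 to 12.1 in controls, and that of maternal transcripts 11.2 to 12.3 and 11.2 to 12 in the same order. The part of these marker differences in the values of the 111 genes was not tested.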

How the data were processed

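Per the labels' protocols, Qiazol was used to extract the RNA of whole embryos, and the polyadenylated part went into libraries that keep the strand (NEBNext Ultra II Directional). The table the authors deposited holds 1 log2 expression value per gene and library, for 15710 Ensembl genes and 32 libraries, from 0 to 19.4. The tools HTSeq 0.11.0 and limma and the build GRCz11 come from the submitters' processing notes, and the normalization step is not stated. Ranked from the top, the highest values matched between libraries to within 0.03, as after quantile normalization, which would hide a shift of most genes in 1 direction. The values are not counts, so no count test was run and no pseudocount was added.

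Groups follow the labelled treatment, and replicate numbers follow accession order and pair nothing. limma 3.58.1 in R 4.3.3 was fitted to all 32 libraries with 4 group means, moderated variances that follow the mean level (empirical Bayes), and p-values adjusted by Benjamini-Hochberg over all 15710 genes, with calls at an adjusted p under 0.05. Differences, SE and 95% intervals come from this fit. F-tests covered the interaction of valproic acid with the title-number set and, in the 24 other libraries, the set itself. The fit was tested on simulated data, with 200 genes changed for the retinoic acid difference, 200 others for the interaction and 200 others for the set. The shares recovered are not given here.

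The genes, the 16 lists, the 7 marker lists and the tests were chosen with earlier results of these data known, and some genes that meet the rule are not reported here. Genes named in the text are the 25 with the largest difference and a symbol that is no clone name, those in the lists, at the limits of the rule, highest in control, with the largest interaction or with the highest retinoic acid difference, and up to 3 other called genes per list. Other genes of the 111 are named to account for the role groups. Symbols come from an identifier table that matched 15016 of 15710 genes. Other settings were limma without the trend, median centring, a filter on low genes, the title-number set as a block, only the 2 groups compared in the fit, other limits in the rule, and leaving out each library. Leaving folic acid replicates 7 and 8 out of the rule was added after the data had been seen.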

Additional observations from a re-analysis of the deposited data

Results flagged for a closer look

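In 5 of the 172 combinations of a named gene and a group, 1 library lay far from the other 7 by Dixon's criterion. For genes not chosen by their values, chance gives about 1 in 20. The rule limits high control and folic acid values and low valproic acid values, so the count is not read against that rate. LRCH1 was lowest in control replicate 2 at 3.98, with the next control library at 4.83. FYN was lowest in folic acid replicate 6 at 3.63, with the next folic acid library at 5.33. SLC44A2 was lowest in retinoic acid replicate 8 at 4.77, with the next at 5.59. Retinoic acid replicate 3 was highest for hmgn3 at 10.5, with the next at 10.03, and lowest for atn1 at 6.75, with the next at 7.50.

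The difference between valproic acid and control varied between the title-number sets for CD63 (adjusted p = 0.00827 by limma) and prkacab (adjusted p = 0.0225 by limma), with the largest difference in numbers 1-12 for both genes. Neither passed without control replicate 1 or without valproic acid replicate 1, and prkacab did not pass without control replicate 5.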

How the results depend on the processing

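For the 43 named genes of the 111, all 1591 alternative values of the difference between valproic acid and control kept their direction and their side of the threshold. The rule chose these genes for a large difference without overlap, so this was close to fixed in advance and is read no further. The largest move was 0.23 (METTL26 without control replicate 6). Of the alternative values for retinoic acid, 1589 kept their direction and their side of the threshold and 2 newly passed. These came with the title-number set as a replicate block, when 2 of the 111 genes (ptmaa and CYTH1) were called higher with retinoic acid, against 0. The labels give no pairing of libraries, so the block is a description of the sets. Leaving out 1 library at a time gave 0 to 1 genes lower with retinoic acid (si:dkey-27i16.2), 0 to 4 genes in the interaction and 14 to 29 genes for the set outside valproic acid. The interaction calls over all genes moved as well, from 34 without control replicate 1 to 517 without control replicate 2. The rule took 174 genes at a difference of 0.75, 37 at 1.5, 141 and 81 at a control mean of 4 and 6, 97 with the retinoic acid libraries added, 143 without the folic acid libraries, 112 after median centring and 109 to 134 with 1 library left out. Few reads stand behind the values near 5, fewest in folic acid replicates 7 and 8, and the cause of these moves was not tested.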
